A study of Mus musculus with 7 samples.

Results

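The genes described here are the transcription factors that drive epithelial-to-mesenchymal transition (EMT) and the mesenchymal markers read out beside them. They were taken by symbol: Snai1, Snai2, Twist1, Twist2, Zeb1, Zeb2, Vim, Fn1 and Cdh2. Of the 9 genes named, 8 were found among the 23930 amplicons of the panel, and Twist2 was not analysed here. All 8 passed the filter on low values, which left 13080 genes.

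In EMT, epithelial cells give up their junctions and apical-basal polarity and take on a motile, mesenchymal form. Factors of the Snail, Zeb and Twist families drive the switch. Snail and Zeb proteins bind short E-box sequences at epithelial genes such as Cdh1, which encodes E-cadherin, and repress them. In the mammary gland Snai2 also belongs to the normal basal lineage, while Vim, Fn1 and the Zeb and Twist genes are expressed by stromal cells, so whole tissue holds their transcripts without any EMT.

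RNA came from paraffin sections of the mammary gland on the side opposite an incident tumor, in 7 parous mice of mixed background that the labels call age-matched. The 3 control mice (numbers 1, 2 and 3) were Blg-Cre;Brca1f/f;Trp53+/-. The 4 HMMRTg/Tg mice (numbers 7, 8, 9 and 11) were Blg-Cre;HMMR Tg/Tg;Brca1f/f;Trp53+/-. Both groups therefore shared the floxed Brca1 alleles, the single intact Trp53 allele and the Cre. The paper gives a lower average age at sacrifice for HMMRTg/Tg than for control mice, over larger groups than those here. The Blg-Cre driver uses the β-lactoglobulin promoter, which is active in mammary epithelial cells from pregnancy and lactation, so that Brca1 loss and the transgene (human HMMR behind a floxed stop at Rosa26) are directed to epithelium and not to stroma. The paper collected this tissue to look for the alterations of its cell experiments in the premalignant state. In its colony assays, EMT colonies became more frequent with Cre in both genotypes. In developed tumors, the paper reports higher Slug (Snai2), Twist1 and Vim in HMMRTg/Tg than in control mice. It also reports lower tight junction genes and claudin protein in those tumors. Tumors differ in tissue and stage from the glands read here, so the values below do not repeat that comparison. Both groups carry the Cre, so the comparison here is between mice with and without the transgene and does not read the effect of Cre. Age, mixed background and the muscle content given below can also differ between the groups. Their part cannot be told apart from that of the transgene.

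Each gene was read by 1 amplicon, and values are reads per 1000000 panel reads (RPM) with no correction for length, so levels are compared between mice and not between genes. Libraries held 5532358 to 9345915 reads, and a floor of 3 reads corresponded to 0.321 to 0.542 RPM. Intervals of fold changes are 95% intervals from limma, on the log2(RPM + 1) scale, HMMRTg/Tg minus control, which understates the change of genes near 1 RPM. The endogenous Hmmr amplicon averaged 2.97 ± 1.37 RPM (SD, n = 3) in control and 8.05 ± 4.6 (SD, n = 4) in HMMRTg/Tg tissue (limma log2 difference 1.07, SE 0.5, adjusted p = 0.533). It stood at 1.45, 4.08 and 3.39 RPM in control mice 1, 2 and 3 and at 11.4, 12.2, 2.43 and 6.19 RPM in HMMRTg/Tg mice 7, 8, 9 and 11, so that mouse 9, on 19 reads, was below controls 2 and 3. It was not tested whether transcripts of the human transgene are picked up by that amplicon. Mammary epithelial markers were present in every mouse, with luminal markers summing to 3230 to 5340 RPM in control and 4070 to 6610 RPM in HMMRTg/Tg libraries. Skeletal muscle markers stood apart by genotype. Their sum was 1950 to 10900 RPM in control against 41.0 to 139 RPM in HMMRTg/Tg mice, with 15 of 15 lower and a median log2 difference of −6.08. A model with a muscle score, which separates the genotypes completely, gave a limma log2 difference of −0.65 for Snai2 (adjusted p = 0.946) and of 2.0 for Fn1 (adjusted p = 0.9).

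No member passed the adjusted threshold of 0.05 between the genotypes in limma, edgeR or DESeq2. Over all genes tested, limma called 0.405% (0.0382% higher and 0.367% lower), edgeR 0.528% and DESeq2 2.08%. At an unadjusted p under 0.05, limma took 2 of the 8 members, Snai2 (lower) and Fn1 (higher), against a background of 9.71% of genes, 3.22% lower and 6.49% higher. edgeR and DESeq2 took the same 2 at that level, where the background was 9.57% and 10.5%. Snai2 was also the 1 member whose groups did not overlap, a separation seen in 9.86% of genes tested, 3.34% with HMMRTg/Tg lower and 6.52% with it higher. For the other 6 members the interval of the difference included 0.

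**Figure D1:**
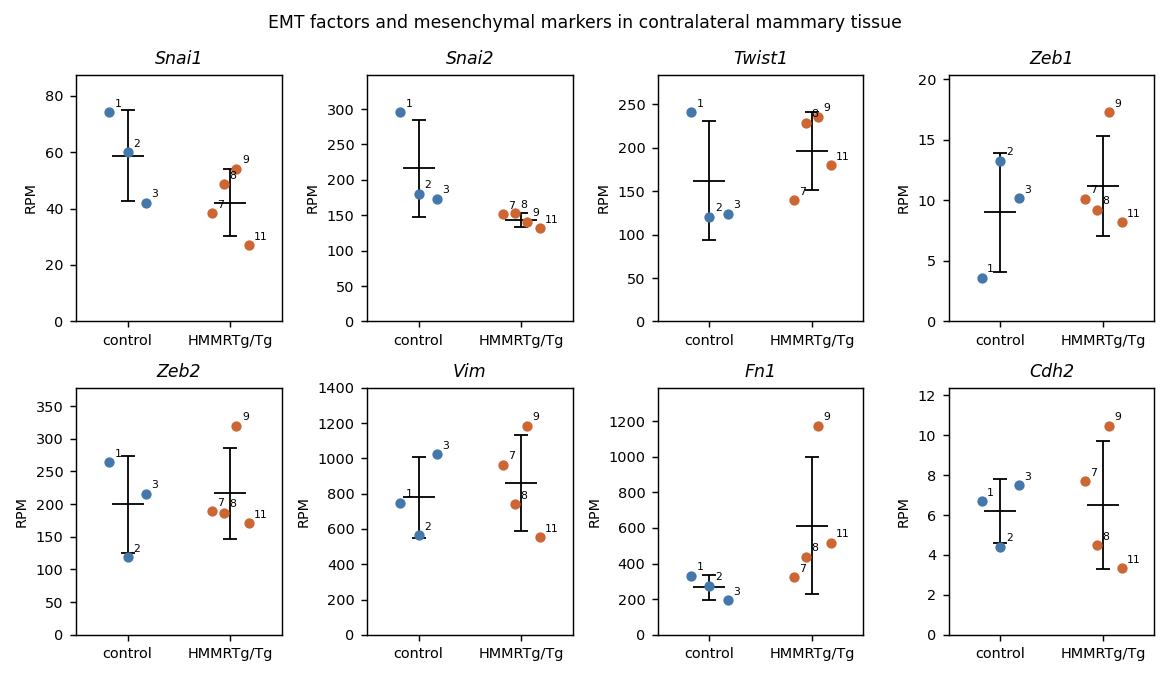
Level of each of the 8 genes (RPM, y axis from 0) in each mouse, with control in blue and HMMRTg/Tg in orange; numbers are mouse numbers, horizontal lines are means and bars are SDs (n = 3 and 4). Snai2 is the one panel in which the groups do not overlap, and the Fn1 mean in HMMRTg/Tg is carried up by mouse 9 at 1176 RPM.

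Snai2 encodes Slug, a zinc-finger repressor of the Snail family (chr16:14705852-14709395, mm10). It stood at 296, 181 and 173 RPM in control mice 1, 2 and 3. In HMMRTg/Tg mice 7, 8, 9 and 11 it stood at 151, 152, 141 and 131 RPM. Every HMMRTg/Tg mouse was below every control mouse, and the 4 lay close together, with a highest value 1.16 times the lowest against 1.71 times in controls. The means were 216 ± 68.6 (SD, n = 3) and 144 ± 9.93 RPM (SD, n = 4), a ratio of 0.665. The limma log2 difference was −0.54 (SE 0.22, interval −1.02 to −0.068, unadjusted p = 0.0289, adjusted p = 0.433). edgeR gave −0.73 (adjusted p = 0.417) and DESeq2 −0.75 (adjusted p = 0.232). Control mouse 1 set much of the size: without it the difference was −0.3 with limma (adjusted p = 0.713). Basal and myoepithelial markers, the lineage that holds most epithelial Snai2, summed to 839 to 948 RPM in control and 943 to 1520 RPM in HMMRTg/Tg mice. Of 10 such markers tested, 9 had a positive difference, with a median of 0.37. With that marker score in the limma model the Snai2 difference was −0.46 (adjusted p = 0.736). The paper reports higher Slug in HMMRTg/Tg tumors, the opposite direction to the estimate here, in another tissue and stage.

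Snai1 encodes Snail, the other main family member, a short-lived protein that is regulated strongly after translation (chr2:167538195-167542814). Control mice 1, 2 and 3 had 74.1, 59.9 and 42.0 RPM. HMMRTg/Tg mice 7, 8, 9 and 11 had 38.3, 48.6, 54.1 and 27.1 RPM. Controls 1 and 2 were above all HMMRTg/Tg mice, control 3 lay inside their range, and so the groups overlapped. Snai1 differed by −0.48 on the log2 scale (SE 0.28, interval −1.11 to 0.15, limma adjusted p = 0.626) on 162 to 543 reads per mouse. Snai1 and Snai2 were the members with the most negative differences. In both, mouse 1 was highest and mouse 11 lowest.

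Both Snail and Zeb proteins recognise an E-box with the core CAGGTG, read as CACCTG on the other strand, and Snai1 can bind its own promoter. That hexamer was looked for on both strands, in RefSeq promoter windows of 300 bases that span the start site, from GRCm38.p6, the assembly of mm10. It was present in 6640 of 32851 windows of all genes, or 20.2%. Among members with an entry (Snai1, Twist1, Twist2, Zeb2 and Vim, 8 windows in all), it was present in 1 window, that of Snai1. Among epithelial adhesion genes that EMT lowers, 16 of 25 had an entry, and 17 of their 21 windows held it (81.0%). Counted by gene, that was 13 of 16, the highest share of the EMT lists searched, against 22.6% of all genes. Factors that keep the epithelial state had it in 4 of 8 genes and other EMT-linked factors in 0 of 7. TGF-beta genes had it in 2 of 14 and other mesenchymal and matrix genes in 2 of 15. The adhesion list was drawn from genes known to be repressed in EMT, so it was not chosen independently of the element. A match is a description of the letters and not evidence of binding in these mice. Printed here are the Snai1 window (chr2:167537945-167538244, plus strand) and those of Tjp3, which had one of the lowest unadjusted p of the adhesion genes, and Crb3, picked after the search for its 4 copies. Each runs 5′ to 3′ on the gene's strand, with the motif in capitals.
Snai1: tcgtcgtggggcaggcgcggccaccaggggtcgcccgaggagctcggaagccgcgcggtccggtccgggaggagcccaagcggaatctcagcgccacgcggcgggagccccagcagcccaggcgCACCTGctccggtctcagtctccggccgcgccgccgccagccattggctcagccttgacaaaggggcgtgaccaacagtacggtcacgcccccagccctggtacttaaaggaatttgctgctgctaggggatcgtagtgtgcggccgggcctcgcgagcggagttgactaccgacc
Tjp3: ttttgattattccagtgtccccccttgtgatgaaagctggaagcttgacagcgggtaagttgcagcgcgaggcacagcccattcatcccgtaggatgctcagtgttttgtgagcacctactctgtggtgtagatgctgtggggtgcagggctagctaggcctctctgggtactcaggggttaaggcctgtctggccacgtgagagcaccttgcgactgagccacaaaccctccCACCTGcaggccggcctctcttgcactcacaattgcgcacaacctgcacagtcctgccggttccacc
Crb3: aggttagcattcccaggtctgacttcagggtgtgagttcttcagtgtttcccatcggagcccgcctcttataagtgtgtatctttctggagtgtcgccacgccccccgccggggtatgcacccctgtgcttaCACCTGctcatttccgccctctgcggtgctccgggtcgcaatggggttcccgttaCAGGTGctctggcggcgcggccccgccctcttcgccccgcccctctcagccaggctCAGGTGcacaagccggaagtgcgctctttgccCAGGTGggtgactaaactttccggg
In Snai1 the capitals start 126 bases before the start site. Tjp3, a tight junction scaffold protein, has RefSeq windows for more than 1 start site. The one printed (chr10:81291218-81291517, minus strand) has its copy 17 bases before the start site, and the other (chr10:81291532-81291831) has a copy 108 bases before its own. Crb3, a polarity protein at the apical membrane, has its 4 copies in the window printed (chr17:57061951-57062250, plus strand) from 118 bases before to 25 after the start site.

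Twist1 is a basic helix-loop-helix factor of mesoderm and stroma (chr12:33957671-33959831). Control mice 1, 2 and 3 had 241, 121 and 124 RPM. HMMRTg/Tg mice 7, 8, 9 and 11 had 139, 229, 236 and 180.0 RPM. Control 1 was highest of all, while controls 2 and 3 were lower than every HMMRTg/Tg mouse. The log2 difference was 0.32 (SE 0.28, interval −0.3 to 0.94, limma adjusted p = 0.749), and without mouse 1 it was 0.64 (adjusted p = 0.578). Twist1 and the Snail genes thus differed in sign of the estimate, although none passed the test.

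Zeb1 and Zeb2 encode large zinc-finger and homeodomain repressors of epithelial genes. Zeb1 (chr18:5591327-5775468) gave few reads, 20 to 135 per mouse. Its level was 3.615, 13.2 and 10.2 RPM in control mice 1, 2 and 3. It was 10.1, 9.20, 17.3 and 8.20 RPM in HMMRTg/Tg mice 7, 8, 9 and 11. Mouse 1 was lowest and mouse 9 highest, and the other 5 mice, of both genotypes, spanned 8.20 to 13.2 RPM. Zeb1 thus differed by 0.38 on the log2 scale (SE 0.43, interval −0.57 to 1.33, limma adjusted p = 0.811), and it turned to −0.1 without mouse 1.

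Zeb2 (chr2:44983512-45117442), which macrophages and stromal cells also express, gave 264, 118 and 216 RPM in control mice 1, 2 and 3. HMMRTg/Tg mice 7, 8, 9 and 11 gave 189, 187, 320.2 and 171 RPM. Mouse 9 was highest and mouse 2 lowest, and the 3 other HMMRTg/Tg mice lay between controls 2 and 3. The log2 difference was 0.15 (SE 0.3, interval −0.52 to 0.82, limma adjusted p = 0.908). The sign of the estimate was not stable: edgeR gave −0.0051 and DESeq2 −0.032, and it was −0.19 without mouse 2 and −0.054 without mouse 9. Macrophage markers summed to 1000 RPM in mouse 9 and 991 RPM in mouse 1, the mice with the most Zeb2. Macrophage sums ranged from 506 to 1000 RPM in all. Endothelial markers were also highest in those mice, with sums of 822 RPM in mouse 9 and 802 RPM in mouse 1. What either cell type contributes to the Zeb2 level was not tested. With the macrophage score in the limma model the Zeb2 difference was 0.3 (adjusted p = 0.767).

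Fn1 encodes fibronectin, a matrix glycoprotein that both fibroblasts and cells in EMT deposit (chr1:71585473-71653280). Control mice 1, 2 and 3 had 331, 275 and 194 RPM. HMMRTg/Tg mice 7, 8, 9 and 11 had 322, 439, 1176 and 517 RPM. Mice 8, 9 and 11 were above all controls, mouse 7 was just under control 1, and mouse 9 was 2.27 times the next highest mouse. The means were 267 ± 69.0 (SD, n = 3) and 614 ± 383 RPM (SD, n = 4), a ratio of 2.3. The log2 difference was 1.05 (SE 0.38, interval 0.2 to 1.9, unadjusted p = 0.0199, limma adjusted p = 0.382). It was 0.68 without mouse 9 (adjusted p = 0.438). Mouse 9 also had the largest adipocyte marker sum, 17600 RPM against 5160 to 9720 RPM in controls, and the largest skin marker sum, 109 RPM. The part of those cells in the Fn1 level was not tested. Fibroblast markers summed to 4490 to 6680 RPM in control and 5090 to 5830 RPM in HMMRTg/Tg mice, and with their score in the model the Fn1 difference was 1.03 (limma adjusted p = 0.476). In whole tissue, more cells of a type and more RNA per cell cannot be told apart.

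Vim encodes vimentin, the intermediate filament protein of mesenchymal cells (chr2:13574311-13582826). Control mice 1, 2 and 3 had 749, 565 and 1024 RPM. HMMRTg/Tg mice 7, 8, 9 and 11 had 964, 742, 1187 and 554 RPM. The highest and the lowest mouse were both HMMRTg/Tg, and the control range lay inside theirs. Vim differed by 0.13 on the log2 scale (SE 0.3, interval −0.53 to 0.79, limma adjusted p = 0.92), and it was −0.08 without mouse 2 and −0.043 without mouse 9.

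Cdh2 encodes N-cadherin, the cadherin that replaces E-cadherin in many cells in EMT (chr18:16588877-16809246). With 20 to 82 reads per mouse it was close to the low end of what was measured. Control mice 1, 2 and 3 had 6.69, 4.42 and 7.485 RPM, and HMMRTg/Tg mice 7, 8, 9 and 11 had 7.68, 4.49, 10.5 and 3.35 RPM. The HMMRTg/Tg mice again held both extremes. The log2 difference was −0.017 (SE 0.4, interval −0.9 to 0.87, limma adjusted p = 0.992), an interval that leaves room for changes of nearly 1 log2 unit in either direction.

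**Figure D2:**
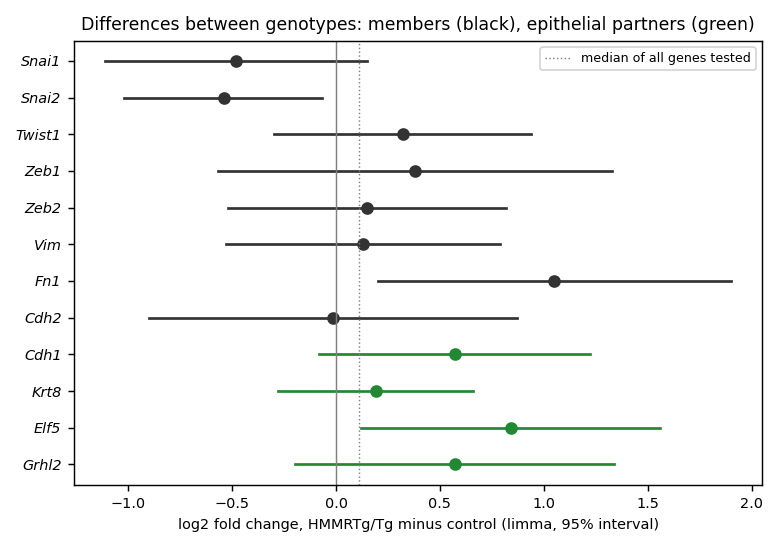
Log2 fold change of each gene (x axis, HMMRTg/Tg minus control, limma on log2(RPM + 1)) with its 95% interval, for the 8 genes in black and for 4 epithelial genes in green; the dotted line is the median of all genes tested, 0.11. The intervals of Snai2, Fn1 and Elf5 leave out 0 before adjustment, and none of the genes passed after it.

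The members also differed in how widely single mice varied. Across the 7 mice the highest value was 2.0 times the lowest for Twist1, 2.14 for Vim, 2.25 for Snai2, 2.7 for Zeb2, 2.73 for Snai1, 3.13 for Cdh2, 4.78 for Zeb1 and 6.06 for Fn1. Mouse 9 was highest for 5 members (Zeb1, Zeb2, Vim, Fn1 and Cdh2) and mouse 1 for the other 3. Mouse 11 was lowest for 4 members (Snai1, Snai2, Vim and Cdh2). Mouse 2 was lowest for Twist1 and Zeb2, mouse 1 for Zeb1 and mouse 3 for Fn1.

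**Figure D3:**
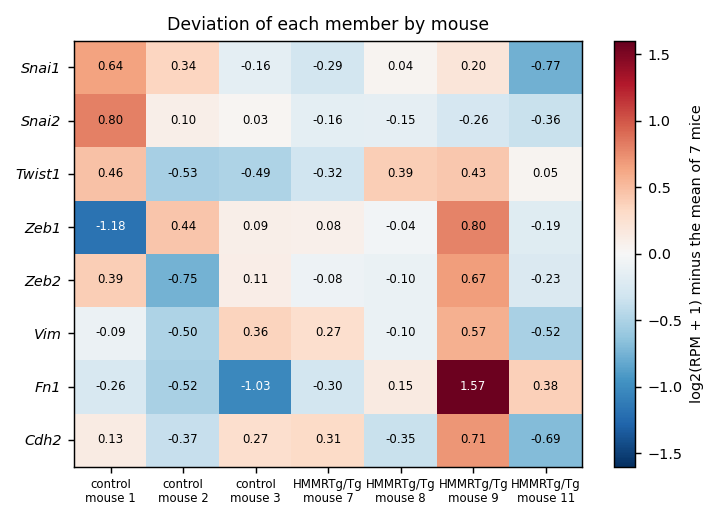
Deviation of each gene in each mouse from the mean of 7 mice (log2(RPM + 1), colour scale, red high and blue low; rows are genes, columns are mice). Mouse 9 is high for Zeb1 (0.8), Vim (0.57) and Fn1 (1.57), and mouse 1 is high for Snai2 (0.8) but low for Zeb1 (−1.18).

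The 28 pairs of members were compared over the 7 mice, both genotypes pooled. Pearson's r was positive in 21 pairs and negative in 7. After adjustment over the 28 pairs, Vim with Cdh2 passed on Pearson's r (r = 0.94, permutation p = 0.000794, adjusted p = 0.0222) but not on Spearman's rho (rho = 0.96, permutation p = 0.00278, adjusted p = 0.0778). Without mice 9 and 3, r was 0.88. Snai1 with Snai2 had r = 0.75 (permutation p = 0.0262, adjusted p = 0.364) and rho = 0.75, and r was 0.17 without mice 11 and 1, so that relation rests on those mice. Levels were already scaled to library size. With the genotypes pooled, the correlations can also carry differences in tissue makeup and between genotypes.

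A shift toward a mesenchymal state would raise a mesenchymal gene against its epithelial counterpart within a library. A different mix of luminal, basal and stromal cells would move such a ratio too, and in whole tissue these cannot be told apart. Taken within a library, the ratio depends little on how libraries are scaled. Cdh2 over Cdh1, N-cadherin over E-cadherin, was −0.79, −2.41 and −1.52 on the log2 scale in control mice 1, 2 and 3. It was −2.13, −2.45, −1.37 and −2.68 in HMMRTg/Tg mice 7, 8, 9 and 11. The means differed by −0.59 (exact permutation p = 0.343, two-sided, adjusted p over 4 ratios = 0.686), and the groups overlapped. Of the genes in this ratio, Cdh2 differed by −0.017 and Cdh1 by 0.57. Snai2 over Elf5, a luminal progenitor and alveolar factor that opposes Snai2, was 0.13, −1.63 and −0.61 in control and −1.87, −2.35, −1.5 and −2.62 in HMMRTg/Tg mice. Mice 7, 8 and 11 were below all controls, and mouse 9 was above control 2. That difference of −1.38 was the largest of the 4 ratios compared (exact permutation p = 0.114, adjusted p = 0.456). Elf5 itself was 366 ± 171 RPM (SD, n = 3) in control and 638 ± 195 RPM (SD, n = 4) in HMMRTg/Tg mice (log2 difference 0.84, SE 0.33, limma adjusted p = 0.424).

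Vim over Krt8, a luminal keratin, was 3.17 ± 0.6 (SD, n = 3) in control and 3.11 ± 0.52 (SD, n = 4) in HMMRTg/Tg mice on the log2 scale, a difference of −0.065 (exact permutation p = 0.914, adjusted p = 0.914). Zeb1 over Grhl2, a grainyhead factor with which Zeb1 forms a mutually repressive pair, differed by −0.19 (exact permutation p = 0.629, adjusted p = 0.839). Cdh1 averaged 21.1 ± 7.98 and 30.5 ± 4.55 RPM in control and HMMRTg/Tg mice (SD, n = 3 and 4, limma log2 difference 0.57, adjusted p = 0.566). In Grhl2 the log2 difference was 0.57 as well (limma adjusted p = 0.638), and in Krt8 it was 0.19 (adjusted p = 0.807). With 3 mice against 4 there are 35 splits, and the smallest two-sided p they allow is 0.0571, so no ratio could have passed 0.05.

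**Figure D4:**
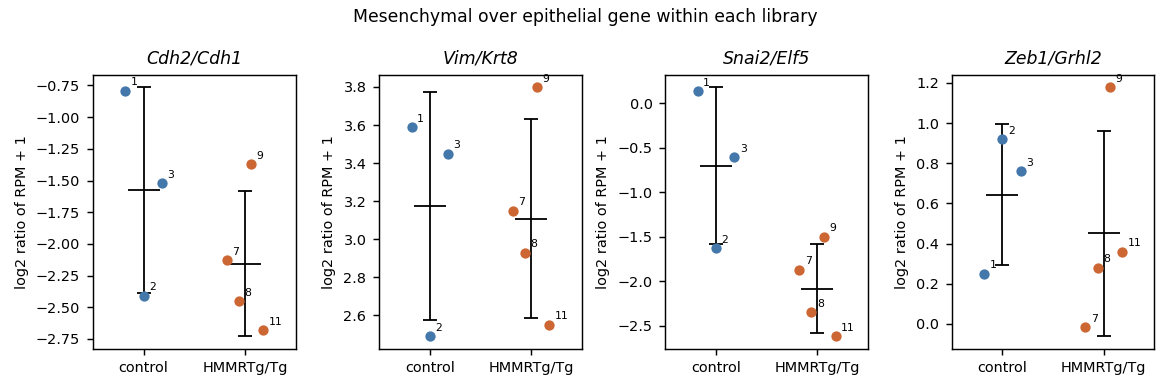
Log2 ratio of a mesenchymal to an epithelial gene (y axis, each gene as RPM + 1) in each mouse for 4 pairs, control in blue and HMMRTg/Tg in orange, with mean and SD (n = 3 and 4). The groups overlap in all 4 panels, and for Snai2 over Elf5 mouse 9 and control 2 are the points that cross.

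The wider EMT program was read from 5 lists of other genes. Epithelial adhesion genes, the junction, polarity and keratin genes that EMT lowers, were the most one-sided: 24 of 25 tested had a positive difference, where 61.2% of all genes did. Before adjustment 11 were higher (limma p under 0.05, background 6.49%), and 0 passed adjustment in limma, edgeR or DESeq2. The median difference was 0.57 (range −0.041 to 1.15) against 0.11 for all genes. St14, the membrane protease matriptase, had the lowest p of the list (log2 difference 1.0, limma adjusted p = 0.115). Also among the lowest were Tjp3 (1.15, limma adjusted p = 0.231) and Cgn, the junction protein cingulin (1.06, adjusted p = 0.243). The 1 gene of the list with a negative difference was Krt19, at −0.041. In HMMRTg/Tg tumors, another tissue and stage, the paper reports tight junction genes as lower, the opposite direction. Of 16 luminal markers tested, 11 had a positive and 5 a negative difference, with a median of 0.67. Several of those with a positive difference, such as Krt8, Cdh1 and Epcam, are on both lists. Before adjustment 4 luminal markers were higher and 2 lower (limma p under 0.05, background 6.49% and 3.22%). After adjustment DESeq2 called 0 higher and 2 lower (background 2.08% in either direction). Without control mouse 1 the median of the adhesion list was 0.35, with 20 positive. The luminal list then had a median of 0.22, with 10 positive.

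Factors that keep the epithelial state had 11 of 13 positive differences and a median of 0.48, or 9 positive and a median of 0.21 without control mouse 1. Of these factors 5 were higher and 1 was lower before adjustment (limma p under 0.05, background 6.49% and 3.22%), and 0 passed after it in limma or edgeR. They included Ehf, an epithelial Ets factor (0.98, limma adjusted p = 0.274), Grhl1 (0.91, adjusted p = 0.316) and the splicing regulator Esrp1 (0.91, adjusted p = 0.334). Foxa1, the pioneer factor of hormone-sensing luminal cells, went the other way (−0.76, limma adjusted p = 0.31), and DESeq2 called it (adjusted p = 0.0311).

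Among other EMT-linked transcription factors, 7 of 10 tested had positive differences, with a median of 0.27, or 0.11 without control mouse 1. Sox9, also a factor of luminal progenitors (0.8, limma adjusted p = 0.414), Sox4 (0.75, adjusted p = 0.376) and the chromatin protein Hmga2 (1.1, adjusted p = 0.433) had the lowest p, and Tcf3 was at −0.69 (adjusted p = 0.591). Hmga2 was read from at most 43 reads per mouse. TGF-beta ligands, receptors and signal carriers, the main inducers of the Snail and Zeb genes, were mixed, 13 of 19 positive with a median of 0.024 in limma, and 8 positive with a median of −0.031 with TMM factors and −0.064 in edgeR. Tgfb3 had the lowest p there (0.85, limma adjusted p = 0.334), while Eng, an endothelial co-receptor, was at −0.55 (adjusted p = 0.489).

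The other mesenchymal and matrix genes were near balance, 11 of 20 positive with a median of 0.11, the same as all genes, and in edgeR 6 were positive with a median of −0.057. Of the 4 with the lowest p, 3 encode secreted matrix proteins and had positive values, as Fn1 had: Postn, encoding periostin (1.2, limma adjusted p = 0.316), Sparc (0.85, adjusted p = 0.442) and Col1a1 (0.94, adjusted p = 0.51). Itga5, the fibronectin receptor subunit, was at −0.58 (adjusted p = 0.397). Postn differed from Fn1 in which mice were high, with 137, 161, 91.7 and 62.2 RPM in HMMRTg/Tg mice 7, 8, 9 and 11 against 28.6, 74.3 and 44.8 RPM in control mice 1, 2 and 3.

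**Figure D5:**
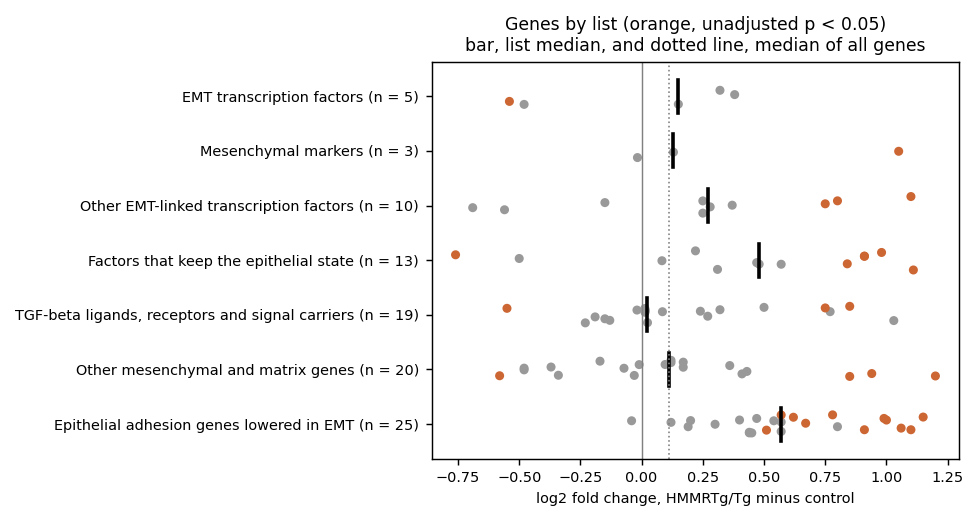
Log2 fold change of every tested gene (points, x axis, HMMRTg/Tg minus control) in the 2 lists of members and the 5 other EMT lists; orange points have an unadjusted limma p under 0.05, bars are list medians and the dotted line is the median of all genes, 0.11. The epithelial adhesion genes sit to the right of 0 in 24 of 25 cases, while the members spread to both sides.

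The genes with the most similar pattern to each member were those whose log2 ratio to it varied least over the 7 mice. They were sought among about 8954 genes with a mean log2 level of at least 3. Picked as the nearest of so many genes over only 7 mice, they can lie close by selection alone, and shared regulation was not tested. For Snai2 they were Fam189b (SD of the log2 ratio 0.119), Phxr4 (0.127) and Gpr161 (0.13). For Snai1 they were Zfp521 (0.161), Elmod2 (0.173) and Nynrin (0.202). Twist1 was followed by Dnal1 (0.139) and by Mmp14, a membrane matrix protease (0.183), and Dok4 (0.183). The nearest genes to Zeb2 were Kirrel (0.133), Ahnak (0.144) and Gsn (0.156), and to Zeb1 Hadha (0.146), Mdh2 (0.172) and Lrp6 (0.176). Vim was nearest to Fbxo4 (0.107), Mnt (0.113) and Dst (0.127), and Cdh2 to Fam102b (0.14), Cd33 (0.151) and Zdhhc17 (0.162). For Fn1, which itself varied most over the mice, they were Hp (0.348), Dok6 (0.369) and Cd209a (0.37).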

How the data were processed

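RNA of contralateral mammary tissue from 3 control and 4 HMMRTg/Tg mice was read with a mouse AmpliSeq panel on an Ion Torrent instrument. The authors ran the AmpliSeqRNA plug-in and deposited 1 value per amplicon and mouse. The deposited column is named TPM, but it holds RPM, reads per 1000000 panel reads, since its low values step by 1 read (tolerance 0.05 reads, met by 100% of values checked). The submitters' processing notes name mm10 and Transcriptome Analysis Console; the aligner is not given in the sources used here. Gene symbols that had turned into dates (27) were restored from amplicon names.

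Log2(RPM + 1) was tested with limma 3.58.1 in R 4.3.3 (trended eBayes, genotype effect) after removal of genes that reached 1 RPM in fewer than 3 mice, with Benjamini-Hochberg adjustment over all of them. The recovered reads were also fitted with edgeR 4.0.16 and with DESeq2 1.42.0. All were also run on simulated counts with a fixed spread and no difference in tissue makeup between groups. That run cannot show how they perform on these data, where muscle content differs by genotype. Ratios were compared with exact permutation tests over 35 splits. Labels name separate mice, and pairs of libraries of 1 group differed far more than counting error allows (27.6 to 140 as chi-square over its degrees of freedom). The members and lists were chosen with earlier results of these data known. Genes named are the members, their ratio partners, Hmmr, the 4 genes of lowest p per EMT list and the 3 genes nearest each member, plus Krt19, Crb3, and marker lists summed. Krt19 and Crb3 were chosen after their values were seen. Some genes that this rule took are not reported here. Alternatives were pseudocounts of 0.1 and 10, other filters, quantile and TMM scaling, array weights, no trend, each mouse left out, and marker scores as covariates, of which macrophages and basal cells were added after the data were seen.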

Additional observations from a re-analysis of the deposited data

Results flagged for a closer look

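Of 12 groups of values examined for a mouse far from the others, 1 stood out, where chance gives about 1 in 20. Zeb2 in HMMRTg/Tg mouse 9 was 320.179 RPM, and its gap to the next of the 4 mice was 0.878 of their whole range, above the critical value of 0.829 for 4 samples. Mouse 9 was also the highest of the 7 mice for Zeb1, Vim, Fn1 and Cdh2.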

How the results depend on the processing

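The count of members past the adjusted threshold was 0 under all 22 alternatives. Snai2 stayed lower (−0.75 to −0.3) and Fn1 (0.68 to 2.0) and Twist1 (0.11 to 0.64) higher in the estimate under each of the 22, with lowest adjusted p of 0.232, 0.261 and 0.578. The other estimates turned sign in places, and the cause was not tested. Zeb1 was −0.1 without control mouse 1. Zeb2 was −0.0051 with edgeR, −0.032 with DESeq2, −0.19 without mouse 2 and −0.054 without mouse 9. Vim was −0.08 without mouse 2 and −0.043 without mouse 9. Cdh2 was 0.011 with a pseudocount of 10, 0.041 with array weights, 0.043, 0.11, 0.098 and 0.21 without mice 1, 3, 8 and 11, and 0.033, 0.26 and 0.1 with fibroblast, luminal or macrophage scores as covariates. Krt8 was −0.019 without mouse 1 and −0.0044 with a basal score. With a skeletal muscle score, whose values do not overlap between genotypes and so can hardly be told apart from them, Snai1 was 0.75, Zeb2 −0.87, Vim −0.56 and Ltbp2, a TGF-beta binding protein, −0.46. The Vim over Krt8 ratio was 0.14, 0.073 and 0.12 without mice 1, 3 and 11. Leaving out mice 1 at a time gave −0.1 to 0.71 for Zeb1, −0.19 to 0.39 for Zeb2, −0.08 to 0.35 for Vim, −0.26 to 0.21 for Cdh2, −0.019 to 0.33 for Krt8, −1.01 to −0.2 for Cdh2 over Cdh1, −0.41 to 0.14 for Vim over Krt8, −1.85 to −0.97 for Snai2 over Elf5 and −0.43 to −0.034 for Zeb1 over Grhl2. Foxa1 passed only with DESeq2 (adjusted p = 0.0311) and Tjp3 only without mouse 2 (limma adjusted p = 0.0402). The median of all genes was 0.11, and 0.024 with TMM factors, which moved the adhesion list's median from 0.57 to 0.48. No paired analysis was possible because the groups share no mouse number. Depth limits Zeb1 and Cdh2, read from as few as 20 reads.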
